A study of Rattus norvegicus with 27 samples.

Results

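The genes examined were 10 genes of microglia, the resident macrophages of the brain, and of the first component of classical complement: Cx3cr1, P2ry12, Csf1r, Aif1, Tmem119, C1qa, C1qb, C1qc, Lyz2 and Ctss. They were taken by name from the gene identifiers of the count table, so that the members were 10 of 17321 genes, and all 10 were among the 12107 genes with enough reads to be tested. RNA sequencing was carried out on punches of the cerebellar interpositus nucleus, the deep nucleus through which a large part of the cerebellar output leaves, from 27 Long-Evans rats at postnatal day 70. The groups were 5 normally reared, untreated (NT) females, 7 NT males, 7 females kept with limited bedding (LB) from postnatal day 2 to 9, and 8 LB males. Limited bedding is a model of early life adversity in which the dam has little nest material. No group carried a transgene or deletion or was given a drug as a treatment. Pups were cross-fostered at postnatal day 2, and the adult rats were decapitated after isoflurane anaesthesia. Each sample was a bulk extract of pooled punches of 2 mm across from 1 animal, so that it held every cell type of the punched tissue.

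Microglia of the healthy brain carry surface receptors by which they read signals from neurons and from other cells, and the genes of these receptors are used as markers of the homeostatic state. They also make C1q, which is built from 3 different chains and starts the classical complement cascade when it binds to cells, debris or antibody. Lysozyme and cathepsin S belong to the degradative equipment of microglia and other macrophages. Lyz2 is well known as a gene of myeloid cells both inside and outside the brain tissue proper, including macrophages of the meninges and vessels and blood leukocytes, whereas P2ry12 and Tmem119 are largely restricted to microglia.

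Levels are given as CPM, the counts scaled to a common library size, after TMM normalization, which corrects for library size and composition. Total counts ranged from 11836684 to 24169170 per animal (median 16034036), and the smallest count behind any value of the 10 genes was 42 reads, for P2ry12. Differences between groups were tested with edgeR's quasi-likelihood test in 1 model of the 4 groups over all 27 animals, with Benjamini-Hochberg adjustment over all genes tested, and a gene was called at an adjusted p below 0.05. The p-values measure the spread between animals. The animal numbers fall into 10 sets with a shared prefix, each of 2 to 4 animals of 1 sex and 1 treatment, with 2 sets in each group of females and 3 in each group of males, so that what animals of a set share can be separated from group only in part. In a bulk sample fewer cells of a type and less RNA per cell cannot be told apart either.

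All 10 genes were detected in every animal, so the defining markers of microglia were present throughout. Per kilobase of exon, Ctss had the highest level, 149 ± 50.4 CPM per kb (SD, n = 27), and Tmem119 the lowest, 2.65 ± 0.989 CPM per kb (SD, n = 27). Between them stood C1qa at 38.8 ± 13.2, Lyz2 at 29.7 ± 12.6, C1qb at 23.9 ± 8.92, Aif1 at 21.1 ± 9.13, C1qc at 16.4 ± 5.21, Csf1r at 13.8 ± 4.27, Cx3cr1 at 6.19 ± 2.42 and P2ry12 at 6.14 ± 2.77 CPM per kb (SD, n = 27 for each). The order between neighbours held in all 27 animals only for Ctss over C1qa and for Csf1r over Cx3cr1. It held in 25 of 27 animals for C1qa over Lyz2 and for P2ry12 over Tmem119, in 22 for C1qc over Csf1r, in 21 for Lyz2 over C1qb, and in 19 for C1qb over Aif1 and for Aif1 over C1qc. Cx3cr1 and P2ry12 could not be ordered, with Cx3cr1 higher in 14 of 27 animals. Genes of the degradative and complement groups were thus at higher levels per kb than the surface receptors, except that C1qc was close to Csf1r. P2ry12 varied most between animals, with an 8.22-fold range from the lowest to the highest CPM, and C1qc and Csf1r varied least, with ranges of 2.88-fold and 2.89-fold.

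In the rn6 assembly used for the counts, the 3 C1q genes lie side by side on the minus strand of chromosome 5, C1qb at chr5:155246444-155251993, C1qc at chr5:155255025-155258351 and C1qa at chr5:155261254-155264101, each with 3 exons. Lyz2 lies at chr7:60335968-60341264 on the minus strand with 4 exons, and Ctss at chr2:197653137-197679768 on the plus strand with 9 exons. The receptor genes are Cx3cr1 at chr8:128740756-128754514 on the minus strand with 2 exons, P2ry12 at chr2:149441601-149444548 on the minus strand with 2 exons, and Csf1r at chr18:56431891-56458300 on the plus strand with 24 exons. Aif1 lies at chr20:5161350-5163249 on the minus strand with 6 exons, and Tmem119 at chr12:48598647-48605704 on the plus strand with 2 exons. The exons of the 10 genes overlapped those of other genes of the table by 0 bases. Lyz2 has a close relative in the rat, Lyc2, between which reads could be divided. Lyc2 held 0 to 8 counts per animal (median 4) against 319 to 1274 (median 517) for Lyz2.

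Promoter sequences from RefSeq on the GRCr8 assembly, 250 bases up to the start of the gene, were found for 6 of the 10 genes. Those of C1qa, C1qb, Lyz2 and Ctss are shown. These genes moved together across the animals, as described in what follows, and so did Csf1r, whose promoter is not shown. Capitals mark the letters GAGGAA, or TTCCTC for the opposite strand, which are the core of sites bound by PU.1, a myeloid transcription factor that Spi1 encodes. C1qa lies at chr5:154419934-154420183, C1qb at chr5:154407828-154408077 and Lyz2 at chr7:54798012-54798261, all on the minus strand, and Ctss at chr2:185775146-185775395 on the plus strand.
C1qa: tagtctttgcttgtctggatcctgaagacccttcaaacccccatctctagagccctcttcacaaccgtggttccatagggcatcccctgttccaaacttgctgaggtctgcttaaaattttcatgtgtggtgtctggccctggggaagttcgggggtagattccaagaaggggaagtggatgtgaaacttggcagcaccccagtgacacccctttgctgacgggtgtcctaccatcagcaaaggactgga
C1qb: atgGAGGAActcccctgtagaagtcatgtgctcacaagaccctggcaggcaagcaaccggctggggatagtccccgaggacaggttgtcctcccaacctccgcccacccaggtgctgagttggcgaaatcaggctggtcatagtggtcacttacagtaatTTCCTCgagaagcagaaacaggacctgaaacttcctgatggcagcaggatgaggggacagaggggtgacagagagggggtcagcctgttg
Lyz2: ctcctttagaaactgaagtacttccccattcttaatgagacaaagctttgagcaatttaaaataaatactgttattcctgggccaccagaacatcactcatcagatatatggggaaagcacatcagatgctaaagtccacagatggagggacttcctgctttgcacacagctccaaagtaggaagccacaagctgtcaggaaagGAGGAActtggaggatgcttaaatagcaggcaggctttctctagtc
Ctss: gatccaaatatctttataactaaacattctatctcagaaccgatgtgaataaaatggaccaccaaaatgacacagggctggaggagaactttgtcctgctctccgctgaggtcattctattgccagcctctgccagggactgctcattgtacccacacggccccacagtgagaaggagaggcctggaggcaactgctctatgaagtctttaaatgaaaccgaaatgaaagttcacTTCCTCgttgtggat
Counted back from the base before the start, the letters stood at -247 to -242 and, on the opposite strand, at -90 to -85 in C1qb, at -46 to -41 in Lyz2, and at -15 to -10 on the opposite strand in Ctss. They were in 4 of the 6 promoters matched, with Csf1r holding 2 matches and C1qa and Cx3cr1 none. Of all 33469 promoters in the RefSeq table, 7812 (23.3%) held them on either strand. No other motif was searched, and a match of 6 letters is a description and no binding site.

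In the normally reared rats 6 of the 10 genes were called as higher in males: Aif1, Lyz2, Ctss, C1qb, C1qa and Csf1r. Of all genes tested, 15.2% were called in this comparison. In limited bedding animals 1 of the 10 genes, Lyz2, was higher in males, where 0.248% of all genes were called. Limited bedding against normal rearing gave 0 of 10 calls in either sex by edgeR's quasi-likelihood test. These calls, and those in the account of each gene, come from the model without the title prefix. When animals of a shared prefix were treated as a random block (estimated correlation 0.17), 0 of the 10 genes were called for sex in either treatment, and of all genes tested 2 were called in NT and 4 in LB animals. Lyz2 then differed by 1.10 on the log2 scale in NT (adjusted p = 0.0651 with the estimated correlation) and by 0.95 in LB animals (adjusted p = 0.190). The plot of levels shows all animals, and the plot of fold changes shows both sex differences with their errors.

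**Figure D1:**
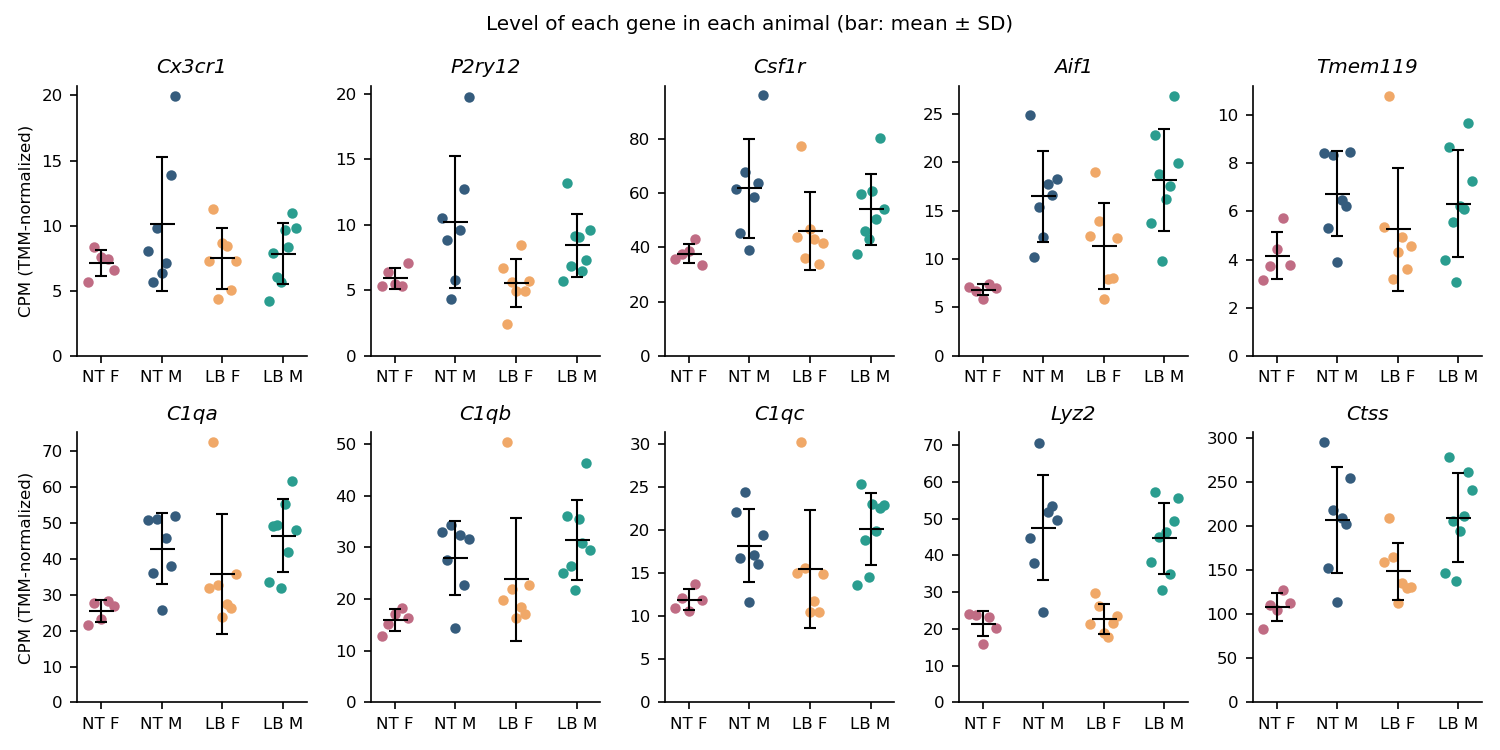
Level of each of the 10 genes in each animal, in TMM-normalized CPM on a linear axis from 0, for normally reared females (NT F, n = 5) and males (NT M, n = 7) and limited bedding females (LB F, n = 7) and males (LB M, n = 8). Points are animals and bars are the mean ± SD; for Lyz2 the highest LB female (29.7 CPM) lies below the lowest LB male (30.5 CPM), whereas for C1qa 1 LB female stands at 72.6 CPM, above all other animals.

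Cx3cr1 encodes the microglial receptor for fractalkine. It stood at 5.68, 8.34, 7.58, 7.44 and 6.56 CPM in the 5 NT females and between 5.71 and 19.9 CPM (median 8.07) in the NT males. LB females ranged from 4.34 to 11.3 CPM (median 7.32) and LB males from 4.25 to 10.98 CPM (median 8.15). The groups overlapped throughout. The highest 2 values of all animals, 13.9 and 19.9 CPM, belonged to NT males 6111 and 6112, which share a title prefix. The sex difference was 0.51 ± 0.28 on the log2 scale (SE, adjusted p = 0.206, edgeR's quasi-likelihood test) in NT animals and 0.07 ± 0.25 (SE, adjusted p = 0.909) in LB animals, and neither was called.

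P2ry12, the ADP receptor that guides microglial processes, stood at 5.31, 6.40, 5.46, 5.35 and 7.07 CPM in NT females and between 4.33 and 19.7 CPM (median 9.60) in NT males. In LB animals females ranged from 2.40 to 8.42 CPM (median 5.65) and males from 5.71 to 13.2 CPM (median 8.21). The groups overlapped, and the lowest value of all belonged to LB female 5022. The sex differences of 0.79 ± 0.29 (adjusted p = 0.0637) in NT and 0.60 ± 0.26 (adjusted p = 0.226) in LB animals did not pass edgeR's quasi-likelihood test. With DESeq2 (adjusted p = 0.0368) and with upper-quartile scaling (adjusted p = 0.0485) the NT difference was called.

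Csf1r, the receptor on which microglia depend for survival, stood at 35.9, 37.5, 38.6, 43.0 and 33.3 CPM in NT females and between 39.0 and 96.2 CPM (median 61.5) in NT males. LB females ranged from 33.7 to 77.3 CPM (median 43.0) and LB males from 37.6 to 80.1 CPM (median 52.3). In normally reared animals 6 of 7 males lay above all females, and the 1.64-fold difference was called by edgeR's quasi-likelihood test (log2 fold change 0.71 ± 0.21, adjusted p = 0.0244). In limited bedding animals the groups overlapped over most of their range, and the difference of 0.23 ± 0.18 on the log2 scale was not called (adjusted p = 0.524).

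Aif1 encodes Iba1, the calcium-binding protein by which microglia are usually stained. It stood at 7.13, 6.72, 5.91, 7.44 and 7.00 CPM in NT females and between 10.3 and 24.9 CPM (median 16.6) in NT males, with no overlap. LB females lay between 5.92 and 18.97 CPM (median 12.2) and LB males from 9.81 to 26.8 CPM (median 18.1), with overlap. The 2.41-fold sex difference in NT animals was the largest of the 10 genes (log2 fold change 1.27 ± 0.26, adjusted p = 0.0103, edgeR's quasi-likelihood test). In LB animals it was 0.68 ± 0.22 on the log2 scale and was not called (adjusted p = 0.124). Aif1 and Lyz2 were 2 of 10 genes whose NT groups did not overlap, against 7.24% of all genes tested.

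Tmem119, a membrane protein used to tell microglia from other macrophages, stood at 3.16, 3.75, 4.43, 5.70 and 3.79 CPM in NT females and between 3.92 and 8.46 CPM (median 6.46) in NT males. After limited bedding females ranged from 3.19 to 10.8 CPM (median 4.55) and males from 3.05 to 9.67 CPM (median 6.18). The groups overlapped in both treatments, and LB female 5022 was the highest of all animals. The log2 sex differences of 0.69 ± 0.29 (adjusted p = 0.0949) in NT and 0.26 ± 0.25 (adjusted p = 0.60) in LB animals were not called by edgeR's quasi-likelihood test.

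The 3 C1q chains are the A, B and C subunits that assemble into the recognition molecule of the classical pathway. C1qa stood at 21.4, 27.6, 23.2, 28.2 and 26.8 CPM in NT females and between 25.7 and 52.0 CPM (median 45.7) in NT males. C1qb stood at 12.8, 15.2, 17.03, 18.2 and 16.4 CPM in NT females and between 14.5 and 34.3 CPM (median 31.6) in NT males. For both genes 6 of 7 males lay above all females, and the exception was NT male 4111. The differences were 1.68-fold for C1qa (log2 fold change 0.75 ± 0.23, adjusted p = 0.0299) and 1.76-fold for C1qb (0.81 ± 0.25, adjusted p = 0.0298), both called by edgeR's quasi-likelihood test. C1qc stood at 10.99, 12.2, 10.6, 13.8 and 11.9 CPM in NT females and between 11.6 and 24.4 CPM (median 17.1) in NT males, again with 6 of 7 males above all females. Its log2 difference of 0.61 ± 0.22 was not called (adjusted p = 0.0591). It was called with DESeq2 (adjusted p = 0.0258), with upper-quartile scaling (adjusted p = 0.0466) and with only the groups compared in the fit (adjusted p = 0.0385).

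In limited bedding females C1qa ranged from 23.8 to 72.6 CPM (median 32.0), C1qb from 16.4 to 50.3 CPM (median 19.8) and C1qc from 10.5 to 30.2 CPM (median 14.9). In limited bedding males the ranges were 32.0 to 61.7 CPM (median 48.6) for C1qa, 21.7 to 46.3 CPM (median 30.2) for C1qb and 13.6 to 25.3 CPM (median 21.2) for C1qc. LB female 5022 was the highest of all 27 animals for each chain, and the other LB females lay low in the male range or under it. The log2 sex differences were 0.38 ± 0.20 (adjusted p = 0.332) for C1qa, 0.40 ± 0.21 (adjusted p = 0.339) for C1qb and 0.37 ± 0.19 (adjusted p = 0.324) for C1qc, and none was called by edgeR's quasi-likelihood test.

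Lyz2, the lysozyme gene of macrophages, was the gene with a call in both treatments. It stood at 24.1, 23.9, 15.95, 23.2 and 20.1 CPM in NT females and between 24.7 and 70.7 CPM (median 49.6) in NT males. With limited bedding females ranged from 17.8 to 29.7 CPM (median 21.7) and males from 30.5 to 57.4 CPM (median 45.6). All males lay above all females of the same treatment, 7 of 7 in NT and 8 of 8 in LB animals. The difference was 2.22-fold in NT (log2 fold change 1.15 ± 0.20, adjusted p = 0.00961) and 1.96-fold in LB animals (0.97 ± 0.17, adjusted p = 0.00649), by edgeR's quasi-likelihood test. Lyz2 was 1 of 10 genes without overlap between LB males and LB females, against 0.273% of all genes tested.

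Ctss, the lysosomal cysteine protease cathepsin S, stood at 83.8, 111, 105, 127 and 113 CPM in NT females and between 114 and 296 CPM (median 209) in NT males. LB females ranged from 113 to 210 CPM (median 135) and LB males from 138 to 279 CPM (median 209). In NT animals 6 of 7 males lay above all females, and the 1.91-fold difference was called (log2 fold change 0.94 ± 0.20, adjusted p = 0.0109, edgeR's quasi-likelihood test). In LB animals the groups overlapped, and the log2 difference of 0.49 ± 0.18 was not called (adjusted p = 0.159).

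**Figure D2:**
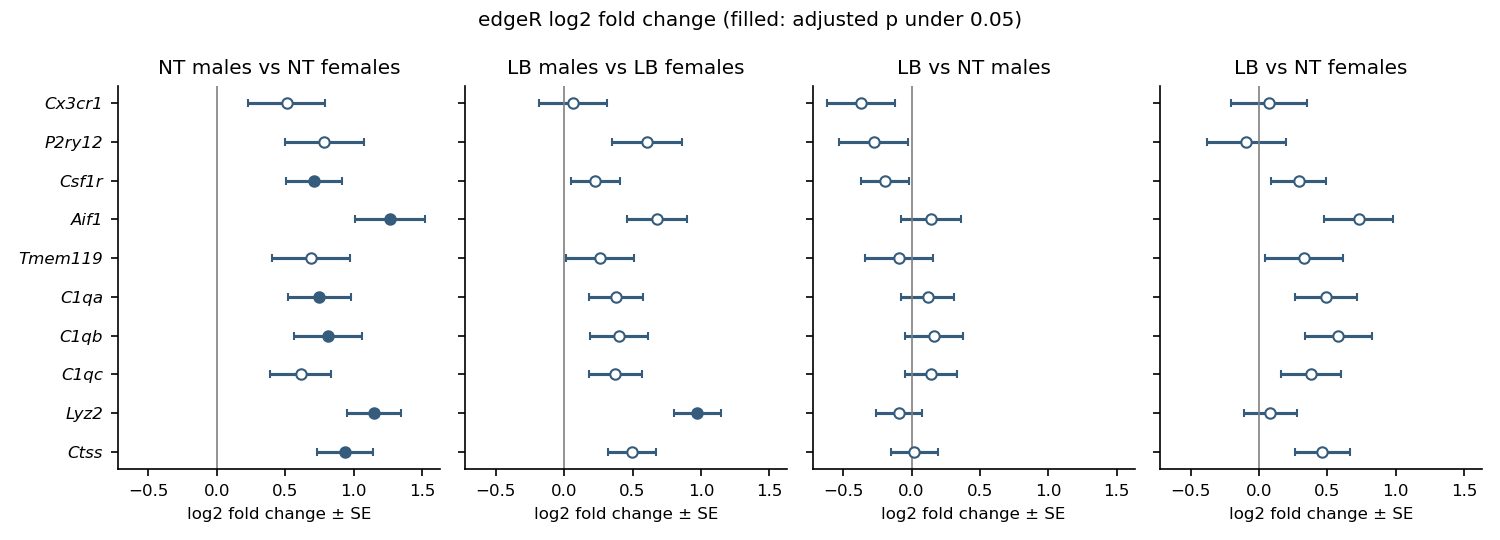
Log2 fold change of each of the 10 genes with its standard error. From left to right, the panels show males over females in NT animals and in LB animals, then LB over NT in males and in females. Filled points had an adjusted p below 0.05 in edgeR's quasi-likelihood test. All 10 values are above 0 in both sex panels, 6 are filled in NT and only Lyz2 (0.97) is filled in LB animals. In the treatment panels 0 points are filled, and values lie on both sides of 0.

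The log2 sex difference was positive for all 10 genes in both treatments, with a median of 0.77 in NT and 0.39 in LB animals, beside medians of 0.03 and 0.01 over all genes tested. With all males against all females, 8 of the 10 genes were called, where 29.3% of all genes were. The values ran from 1.06 for Lyz2 (adjusted p = 3.34e-05, edgeR's quasi-likelihood test) and 0.97 for Aif1 (adjusted p = 0.00091) to 0.48 for Tmem119 (adjusted p = 0.0579) and 0.29 for Cx3cr1 (adjusted p = 0.244), and these last 2 genes were not called. The sex differences were smaller in LB than in NT animals by 0.18 to 0.59 on the log2 scale for all 10 genes. Without LB female 5022, an animal described further on, the interaction was -0.10 for C1qa, -0.12 for C1qb, -0.15 for Tmem119, -0.10 for Lyz2 and 0.0086 for C1qc, so that neither the range nor the common direction held without that animal. This difference of differences was tested as an interaction, and 0 of 10 genes passed (adjusted p = 1.00 for each in edgeR's quasi-likelihood test, 0 of 10 at an unadjusted p below 0.05, against 4.71% of all genes), with 0% of all genes called. That more genes were called in NT than in LB animals is therefore not shown to be a difference between the treatments.

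For treatment itself, 0 of the 10 genes were called in males, where 0% of all genes were, and 0 of 10 in females, where 0.00826% were, by edgeR's quasi-likelihood test, and DESeq2 and limma-voom also gave 0 in both. In males the log2 differences of LB over NT animals ran from -0.37 for Cx3cr1 (adjusted p = 0.554) to 0.17 for C1qb (adjusted p = 0.761), and 0 of 10 had an unadjusted p below 0.05, against 10% of all genes. In females 4 of 10 had an unadjusted p below 0.05, against 7.94% of all genes. The largest value was that of Aif1, 0.73 (unadjusted p = 0.00759, adjusted p = 0.576 in edgeR's quasi-likelihood test), with 6 of 7 LB females above all 5 NT females. The other values in females ran from -0.09 for P2ry12 to 0.58 for C1qb, with Lyz2 at 0.08. Ctss also had 6 of 7 LB females above all 5 NT females. Its value was 0.46 (unadjusted p = 0.0277, adjusted p = 0.580 in edgeR's quasi-likelihood test). Without LB female 5022 the values in females were 0.56 for Aif1, 0.36 for Ctss, 0.28 for C1qb, 0.22 for C1qa and 0.13 for C1qc. The remaining values were 0.12 for Csf1r, 0.05 for Tmem119, 0.04 for P2ry12, -0.05 for Cx3cr1 and 0.0077 for Lyz2. The C1q differences were thus smaller without that animal, and those of P2ry12 and Cx3cr1 changed sign. None of the 10 genes separated LB from NT animals without overlap in either sex, against 0.00826% of all genes in males and 0.33% in females. Over both sexes 0 of 10 genes were called for LB against NT, where 0.00826% of all genes were, and 2 of 10, Aif1 (0.44) and C1qb (0.37), had an unadjusted p below 0.05, against 14.9% of all genes.

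LB female 5022 stood apart within its group. It was the highest LB female for Cx3cr1, Csf1r, Aif1, Tmem119, all 3 C1q chains, Lyz2 and Ctss, and the lowest of all animals for P2ry12, at 2.40 CPM. Its library also had the highest myelin sum (41337 CPM) and the lowest granule neuron sum (7491 CPM) of the LB females. The sums of astrocyte (9360 CPM), endothelium (512 CPM), meninges (288 CPM), choroid plexus (256 CPM) and red blood cell genes (225 CPM) were highest in it as well. Those of deep nucleus, Purkinje cell and border macrophage genes were highest in other LB females. Without this animal 6 of the 10 genes were higher in LB males than in LB females, with 8.76% of all 12087 genes tested then called. These were Lyz2 (log2 fold change 1.05, adjusted p = 0.00393), Aif1 (0.85, adjusted p = 0.0281), C1qb (0.70, adjusted p = 0.0259), C1qa (0.65, adjusted p = 0.0253), C1qc (0.62, adjusted p = 0.0290) and Ctss (0.60, adjusted p = 0.0410), all by edgeR's quasi-likelihood test. In the same fit Cx3cr1 (0.19), Csf1r (0.40), P2ry12 (0.47) and Tmem119 (0.54) were not called. The NT sex difference, whose animals it does not belong to, then had calls for 9 of the 10 genes, all but Cx3cr1, with 22.6% of all genes called. The LB result for Aif1, the C1q chains and Ctss thus turned on 1 animal, whereas Lyz2 was called with or without it, in fits without the prefix block.

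The NT calls also rested on single animals to different degrees. When each of the 27 animals was left out in turn, Aif1, Lyz2 and Ctss were called in NT animals in 27 of 27 fits. Csf1r was called in 22, C1qa and C1qb in 20 each, C1qc and P2ry12 in 3 each, Tmem119 in 2 and Cx3cr1 in 0. Only Aif1, Lyz2 and Ctss were left without NT female 1011, 1013, 2011 or 2013, or without NT male 6112, and 9 genes were called without NT male 4111. The number of calls over all genes moved as well: 4.84% to 9.46% of all genes were called in the fits that left 3 of the 10, and 21.7% without NT male 4111. In LB animals Lyz2 was called in 27 of 27 fits.

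Within each animal the C1q chains and Lyz2 were set against the homeostatic genes, as differences of mean log2(CPM + 0.5). The 3 C1q chains exceeded the mean of Cx3cr1, P2ry12, Csf1r, Aif1 and Tmem119 by 0.93 ± 0.06 (SD, n = 5) in NT females, 0.92 ± 0.34 (SD, n = 7) in NT males, 1.12 ± 0.35 (SD, n = 7) in LB females and 1.19 ± 0.10 (SD, n = 8) in LB males. These values overlapped between all groups but for NT females and LB males, whose ranges were 0.87 to 1.00 and 1.06 to 1.30. The extremes were NT male 6112 at 0.48, with the highest Cx3cr1 and P2ry12 levels, and LB female 5022 at 1.77. The mean distance between C1q and the homeostatic set differed little by sex, by -0.01 in NT and 0.07 in LB animals (males minus females). In NT animals 4 of 7 males lay above all females and 3 below all females, so the small mean difference came from values on both sides.

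Lyz2 behaved differently. It exceeded the homeostatic mean by 1.26 ± 0.26 (SD, n = 5) in NT females and 1.66 ± 0.42 (SD, n = 7) in NT males, a difference of 0.40, with 4 of 7 males above all females. In LB animals it exceeded that mean by 1.14 ± 0.29 (SD, n = 7) in females and 1.72 ± 0.21 (SD, n = 8) in males, a difference of 0.58, with 6 of 8 males above all females. With only Cx3cr1, P2ry12 and Tmem119 as the homeostatic set, the differences between the sexes were 0.56 and 0.64 for Lyz2 and 0.14 and 0.13 for C1q, in NT and LB animals respectively. Lyz2 against C1q stood at 0.33 ± 0.28 (SD, n = 5) in NT females, 0.74 ± 0.26 (SD, n = 7) in NT males, 0.02 ± 0.34 (SD, n = 7) in LB females and 0.53 ± 0.21 (SD, n = 8) in LB males. For Ctss against the homeostatic mean the sex differences were 0.20 in NT animals, with 4 of 7 males above all females, and 0.11 in LB animals. These contrasts are averages over the chosen genes and were given no test. Within the homeostatic set itself, Aif1 minus Cx3cr1 differed by sex by 0.80 in NT and 0.63 in LB animals, also without a test.

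**Figure D3:**
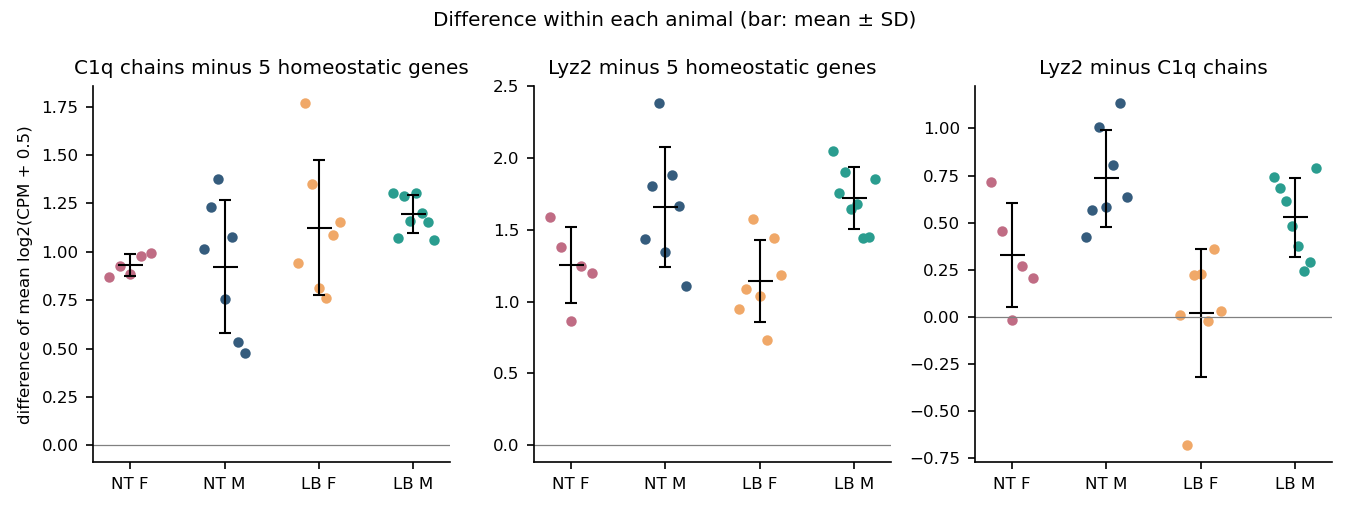
Differences within each animal on the log2(CPM + 0.5) scale between the C1q chains and the 5 homeostatic genes (left), Lyz2 and the 5 homeostatic genes (middle), and Lyz2 and the C1q chains (right). Points are animals and bars are the mean ± SD, in the order NT F, NT M, LB F and LB M; the C1q panel has nearly level means in NT animals (0.93 and 0.92), and in the middle panel males average 1.66 and 1.72 against 1.26 and 1.14 in females.

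Across the 27 animals the 10 genes formed 45 pairs, with Pearson's r from 0.18 to 0.96 and a median of 0.79. The permutation test gave a Benjamini-Hochberg adjusted p below 0.05 for 36 pairs with Pearson's r and 40 pairs with Spearman's rho. C1qa and C1qb were most closely related (r = 0.96, rho = 0.95, permutation p = 1e-05, the smallest that 100000 resamples can give, adjusted p = 1.8e-05), and r was 0.95 without the 2 animals farthest from the median of C1qa. Among the C1q chains r lay between 0.94 and 0.96, and between 0.90 and 0.94 after group means had been taken out. Csf1r and Tmem119 had r = 0.90 and rho = 0.90, and Csf1r and C1qa had r = 0.84 and rho = 0.84, both at the same smallest permutation p. Without the 2 farthest animals these values were 0.90 and 0.85, and after group means 0.87 and 0.80.

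Lyz2 was related to the C1q chains with r between 0.75 and 0.79 and to Ctss with r = 0.83 and rho = 0.80 (permutation p = 1e-05). For C1qa and Lyz2 r was 0.79 and rho 0.79 (permutation p = 1e-05), r was 0.89 without the 2 farthest animals, which were LB female 5022 and LB male 9122, and 0.71 after group means. For Cx3cr1 and Lyz2 r was 0.39 and rho 0.34, and the relation did not pass (permutation p = 0.0450 and 0.0870, adjusted p = 0.0547 and 0.0890). Without NT males 6111 and 6112 this r fell to 0.27.

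P2ry12 went least with the others. Its r with C1qa was 0.22 and its rho 0.40 (permutation p = 0.278 and 0.0386, adjusted p = 0.291 and 0.0445). Without LB female 5022 and NT male 6112 this r was 0.50 (adjusted p = 0.0136), and after group means with all animals it was -0.11. With Lyz2 its r was 0.47 and its rho 0.52 (permutation p = 0.0119 and 0.00521, adjusted p = 0.0162 and 0.00756) and its r was 0.00 after group means. Even the pair of purinergic and fractalkine receptors, P2ry12 and Cx3cr1, had r = 0.38 and rho = 0.25 (permutation p = 0.0489 and 0.199, adjusted p = 0.0579 and 0.199), and r was -0.03 without NT males 6111 and 6112. The animals are not fully independent, since title prefixes mark sets of 2 to 4 animals, which are too small for an r of their own. With the means of these sets taken out, 36 of 45 pairs passed with either coefficient. The permutations treated these residuals as exchangeable, although taking out the set means leaves fewer degrees of freedom. Their p-values therefore tend to be too small, and the count does not settle the dependence between animals.

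**Figure D4:**
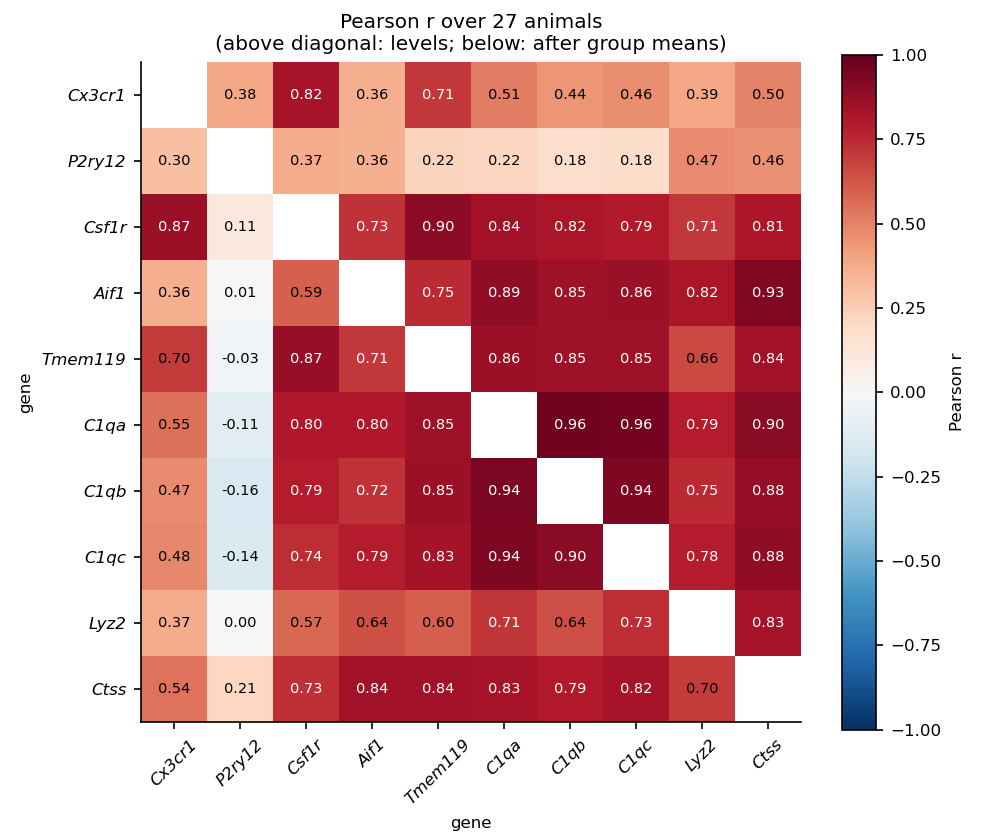
Pearson's r of log2(CPM + 0.5) between each pair of the 10 genes over 27 animals, above the diagonal from the levels and below it after the 4 group means were taken out. The C1q chains form a block at 0.90 to 0.96, while the row and column of P2ry12 are the palest, between -0.16 and 0.47.

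The genes outside the 10 with the most similar pattern over all 27 animals were taken by their Pearson's r, as a description. For the mean of the 5 homeostatic genes these were Chi3l1, P2ry6 and E2f1 (r = 0.93 each), and Msmo1 and Sh3gl3 (r = 0.92 each). For the mean of the C1q chains they were Apoe (r = 0.96), the gene of apolipoprotein E, Iscu, Tmem176a, Pnp and Tyrobp (r = 0.95 each), the last encoding the signalling adaptor of microglial receptors. For Lyz2 they were S100a10 and Sox4 (r = 0.91 each), and Id3, Smim3 and RT1-Db1 (r = 0.90 each), the last encoding a class II histocompatibility chain. The 5 genes nearest to each set were thus different ones, and all these values share library, depth and tissue composition.

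Of 25 further microglia genes 24 were tested, with a median log2 difference of 0.86 for NT males over NT females. Where 15.2% of all genes were called, 15 of these were higher in NT males than in NT females and none lower. Among them were Cd53, a tetraspanin of leukocytes (1.10, adjusted p = 0.0110), Fcer1g, the common chain of Fc receptors (1.26, adjusted p = 0.0113), Sall1, the transcription factor of microglial identity (1.15, adjusted p = 0.0123), and Irf8, a transcription factor of the myeloid lineage (1.20, adjusted p = 0.0147), by edgeR's quasi-likelihood test. In LB animals 0 of the 24 were called, with a median of 0.39 and 8 of 24 at an unadjusted p below 0.05, against 17% of all genes. The nearest were Olfml3 (0.64, adjusted p = 0.0889) and Trem2, the lipid-sensing receptor (0.85, adjusted p = 0.101). The 10 genes thus moved with a broader microglia set, whose medians were close to their own.

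Il34 and Csf1 encode the ligands of the Csf1 receptor, and Cx3cl1 that of Cx3cr1. Il34 was higher in NT males, at 21.97 ± 12.95 CPM (SD, n = 7) against 11.2 ± 1.62 CPM (SD, n = 5) in NT females (log2 fold change 0.97, adjusted p = 0.0413, edgeR's quasi-likelihood test). Csf1 (0.87, adjusted p = 0.0520) and Cx3cl1 (1.72, adjusted p = 0.0668) did not pass, although all 7 NT males had more Csf1 than all NT females. In LB animals Il34 differed by 0.79 (adjusted p = 0.157), Cx3cl1 by 1.00 (adjusted p = 0.353) and Csf1 by 0.00 (adjusted p = 0.998), and 0 of 3 were called, with 1 at an unadjusted p below 0.05.

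The rest of classical complement, C1r and C1s of the C1 complex and the later steps, was followed with a list of its own. Of 13 genes of this list 8 were tested, C8a, C8b and C9 were below the count filter, and C5 and C7 were not analysed here. C2, the protease that forms part of the C3 convertase, was the only call, at 13.1 ± 3.30 CPM (SD, n = 7) in NT males against 7.95 ± 1.67 CPM (SD, n = 5) in NT females (log2 fold change 0.72, adjusted p = 0.0350, edgeR's quasi-likelihood test). That 1 of 8 was called is near the background of 15.2%. The median of the 8 was 0.17 in NT and 0.06 in LB animals, and in LB animals 0 were called and 1 had an unadjusted p below 0.05, with C2 at 0.45 (adjusted p = 0.244) and C1s, a protease of the C1 complex, at 0.20 (adjusted p = 0.521). Of 13 complement regulators and receptors tested, Cd59, the inhibitor of the membrane attack complex, was called in NT animals (0.57, adjusted p = 0.0309, edgeR's quasi-likelihood test), with a list median of 0.28. That 1 of 13 was called is below the background of 15.2%. In LB animals 0 of these 13 were called, and 0 had an unadjusted p below 0.05.

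Where 15.2% of all genes were called, 8 of 19 tested genes of activated microglia were higher in NT males. In LB animals, where 0.248% of all genes were called, 2 of the 19 were higher in males. The list medians were 0.69 and 0.26. The NT calls included Cd9, a tetraspanin (0.96, adjusted p = 0.0201), Ctsz, a lysosomal cathepsin (0.69, adjusted p = 0.0230), and RT1-Db1 (1.08, adjusted p = 0.0231). The LB calls were RT1-Db1 (1.30, adjusted p = 0.0321) and Cd74, the invariant chain of class II (1.5, adjusted p = 0.0424), both antigen presentation genes, by edgeR's quasi-likelihood test. For limited bedding against normal rearing and for the interaction, 0 genes were called in any of these lists. At an unadjusted p below 0.05 stood 4 of 24 further microglia genes in males, 4 in females and 4 in the interaction. Of 19 genes of activated microglia, 0 stood there in males, 4 in females and 1 in the interaction. The shares of all genes were 10% in males, 7.94% in females and 4.71% in the interaction.

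Markers of other cells moved with the sex difference as well. Over all genes tested, 15.2% were called for sex in NT and 0.248% in LB animals. Of 10 myelin genes all 10 were higher in NT males, with a median log2 difference of 1.28, and their summed level was 7904 to 12121 CPM in NT females and 11439 to 53428 CPM in NT males. It was 11654 to 41337 CPM in LB females and 14298 to 44283 CPM in LB males, with 0 of 10 called. Of 8 granule neuron genes 3 were lower in NT males, with sums of 9049 to 9687 CPM in NT females and 2911 to 8741 CPM in NT males, and of 8 deep nucleus genes 5 were higher, with sums of 473 to 569 CPM and 500 to 4095 CPM. In LB females and LB males, granule neuron sums were 7491 to 9011 and 5364 to 9287 CPM and deep nucleus sums 496 to 788 and 531 to 833 CPM, with 0 calls. Of 8 meninges genes 2 were higher in NT males and 4 in LB males, with sums of 193 to 290, 294 to 787, 142 to 288 and 317 to 601 CPM in NT females and males and then in LB females and males. Of 8 astrocyte genes 2 were higher and of 5 Purkinje cell genes 2 were lower in NT males (list medians 0.27 and -0.45), with 0 calls in LB animals, and of 6 endothelium genes 0 were called in either treatment. Choroid plexus genes had 2 of 5 called as higher in NT males (median 2.27), with sums of 20.5 to 87.8 CPM in NT females and 11.5 to 6494 CPM in NT males, and 0 of 5 in LB animals (median -0.31; 20.8 to 256 CPM in females and 16.4 to 182 CPM in males). Their part in the differences of the 10 genes was not tested beyond the covariate fits that follow.

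Macrophages at the borders of the brain and leukocytes of the blood also express Lyz2. The calls that follow stand beside 15.2% of all genes in NT and 0.248% in LB animals. Of 6 border macrophage genes tested 2 were higher in NT males and 1 in LB males, with sums of 11.03 to 16.4 CPM in NT females, 14.9 to 26.9 CPM in NT males, 10.1 to 15.2 CPM in LB females and 11.1 to 27.7 CPM in LB males. Only 2 of 12 blood leukocyte genes, Plac8 and S100a9, had enough reads to be tested. Plac8 was called in NT animals (log2 fold change 1.26, adjusted p = 0.0196, edgeR's quasi-likelihood test) and S100a9 was not (1.19, adjusted p = 0.144). In LB animals neither was called, at 1.23 for Plac8 (adjusted p = 0.0688) and 1.70 for S100a9 (adjusted p = 0.102), which rested on few reads (3 to 30 per NT male). The list medians of 1.22 in NT and 1.47 in LB animals were above the Lyz2 differences of 1.15 and 0.97. Across the 27 animals the mean of these genes had r = 0.86 with Lyz2, as a description over libraries that share depth and composition. Lyz2 also had r = 0.80 with the mean of the other microglia genes and with that of activated microglia genes. For meninges genes r was 0.75, for border macrophage genes 0.71, for granule neuron genes -0.76, for choroid plexus genes 0.28 and for endothelium genes -0.11. Summed over the list, blood leukocyte genes stood at 1.13 to 2.72, 1.96 to 9.02, 1.56 to 3.66 and 2.85 to 7.55 CPM in the same order. Red blood cell genes moved likewise, with 1 of 3 called in NT (Hba-a1, 1.04, adjusted p = 0.0298, edgeR's quasi-likelihood test; list median 0.84), 0 of 3 in LB (median 1.12) and 3 of 3 over all animals (median 0.98). Their sums were 97.6 to 215 CPM in NT females, 136 to 420.5 CPM in NT males, 86.3 to 225 CPM in LB females and 195 to 559 CPM in LB males, and their mean had r = 0.71 with Lyz2 and with the C1q mean. The part of border, leukocyte and red blood cells in the differences of the 10 genes was not tested, but for the covariate fit with border macrophage genes. The list was incomplete, since Stab1, Cbr2 and Ccr2 were not analysed here, and Ms4a7, Siglec1 and most leukocyte genes were under the count filter, though none of those in the table was at 0 in all animals.

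With the mean of the other microglia genes as a covariate, the NT sex difference was -0.46 for Cx3cr1, -0.07 for Csf1r, 0.01 for C1qa and 0.18 for Ctss, and that of Lyz2 was 0.73 (adjusted p = 0.861, edgeR's quasi-likelihood test). In LB animals Lyz2 differed by 0.72 (adjusted p = 0.216) in the same fit, and C1qa by -0.01. No gene of the 10 was called, and of all genes tested 3 were called in NT and 6 in LB animals. With border macrophage genes as the covariate Lyz2 differed by 0.98 (adjusted p = 0.0996) in NT and 0.79 (adjusted p = 0.330) in LB animals. With meninges genes it differed by 0.98 in NT, where it was still called, and by 0.57 (adjusted p = 0.995) in LB animals. With myelin genes Lyz2 differed by 1.13 (adjusted p = 0.126) and 0.97 (adjusted p = 0.0112), and with granule neuron minus deep nucleus genes by 0.87 (adjusted p = 0.516) and 0.87 (adjusted p = 0.0232), in NT and LB animals.

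**Figure D5:**
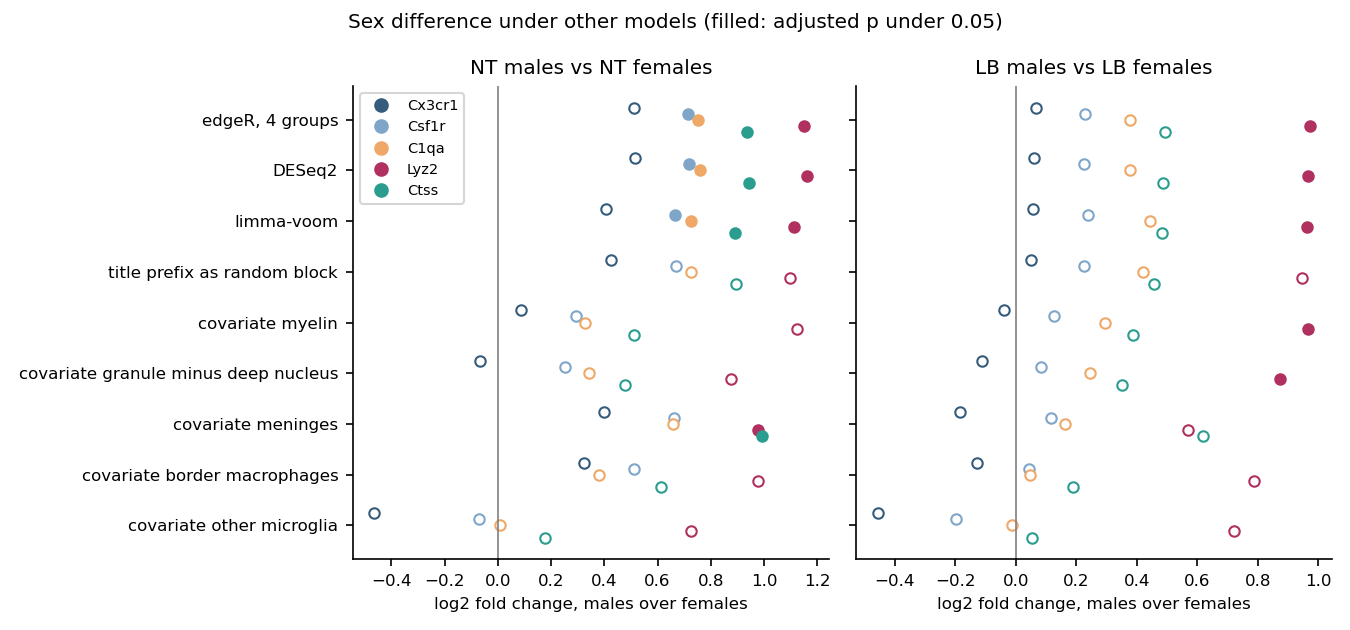
Log2 fold change of males over females for Cx3cr1, Csf1r, C1qa, Lyz2 and Ctss in NT (left) and LB animals (right) under edgeR's quasi-likelihood test of the 4 groups and 8 other models; filled points had an adjusted p below 0.05. With other microglia genes as covariate C1qa lies at 0.01 and -0.01 and Cx3cr1 at -0.46 in both panels, while Lyz2 stays at 0.73 and 0.72 without a call.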

How the data were processed

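The deposited file held raw counts per gene, whole numbers that the authors made from mRNA libraries (KAPA mRNA HyperPrep, punches over consecutive 1 mm sections) with STAR 2.5.2b and featureCounts of Subread 1.5.1 on rn6, per the submitters' processing notes. No column was left unmapped (0), and each column name equals 1 animal's title. Strand settings were not given in the sources used here, and genes sharing reads with close copies may be affected. From the deposited counts, edgeR 4.0.16 (R 4.3.3) gave TMM factors, CPM and the quasi-likelihood test (genes kept by filterByExpr at a minimum count of 10 and a total of 15, prior count 0.125, robust fit, threshold 0.05). SE is the standard error of the log2 fold change. CPM per kb used the exon length given in the count file.

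Groups came from the labels for sex and treatment. Pearson's r and Spearman's rho were computed on log2(CPM + 0.5), with 100000 permutations, in Python 3.11.15 with scipy 1.17.1. Alternatives were DESeq2 1.42.0, limma-voom 3.58.1, library size alone, upper-quartile normalization, no filter but 1 count, only the groups compared, the title prefix as random block, covariates from marker lists, and leaving out each of the 27 animals. The scripts were tested on simulated data. The members and all lists were chosen with earlier results of these data known. Genes outside the 10 were named by a rule: per list at most 4 with the smallest p among those past the threshold, otherwise the 2 with the smallest p, besides the 3 ligands and the 5 genes most like each set. Ccl2, which the rule also names, reached no more than 22 counts in an animal and is given in the closing section. Promoters came from RefSeq on GRCr8, and coordinates of genes from the count file on rn6. Proteins were not used here.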

Additional observations from a re-analysis of the deposited data

Results flagged for a closer look

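In groups of 4 to 10 animals, the gap between an extreme animal and its nearest neighbour was compared with the range of the group for each of the 10 genes and for the contrasts between gene sets. Of 48 groups of values checked 5 were marked, where chance marks about 1 in 20, or 2.4. All 5 were the same animal, LB female 5022, at the top of its group. Its Csf1r level was 77.3 CPM with the nearest LB female at 46.7 CPM, and its Tmem119 level 10.8 CPM with the nearest at 5.33 CPM. Its C1qa level was 72.6 CPM against 35.7 CPM, its C1qb level 50.3 CPM against 22.7 CPM and its C1qc level 30.2 CPM against 15.6 CPM. The 5 are not independent, since they are genes that correlate across animals. The same animal had the lowest TMM factor of all libraries, 0.878, and without TMM, by library size alone, its C1qa level was 63.7 CPM and still the highest of its group. What sets it apart was not tested.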

How the results depend on the processing

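Of the 10 genes, 6 were called for sex in NT, 1 in LB and 8 over all animals. Members called in NT, LB and all animals were 0, 0 and 5 with the title prefix as random block, 0, 1 and 1 with the granule minus deep nucleus covariate, 0, 1 and 2 with myelin, 3, 0 and 0 with meninges, and, chosen after seeing the data, 0, 0 and 0 with other microglia and 0, 0 and 1 with border macrophages. DESeq2 called 8 in NT and 2 in LB, upper-quartile scaling 8 in NT, and only the groups compared 7 in NT. Leaving out 1 animal gave, in the same order, 3 to 9, 1 to 6 and 8 to 9. Calls for treatment and interaction were 0 in every fit. Genes called in NT and LB over the whole table were 1840 and 30, against 2477 and 408 with DESeq2, 1247 and 28 with limma-voom, 1353 and 24 with only the groups compared, 2 and 4 with the block, 3 and 20 with granule minus deep nucleus, 3 and 33 with myelin, 520 and 3 with meninges, 3 and 6 with other microglia, and 3 and 3 with border macrophages. For all males against all females 3546 genes (29.3%) were called over the whole table, and 2805 to 5125 when 1 animal was left out. Shares of all genes are not given here for upper-quartile scaling, or for all animals under the other models. Those member counts therefore have no background beside them. The median log2 fold change of all genes stayed within 0.1 of 0 under every scaling.

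Some differences changed sign under a covariate, and the cause was not tested. With the other microglia covariate the NT sex differences of Csf1r (0.71, called), Tmem119 (0.69) and Cx3cr1 (0.51) fell below 0. With the granule minus deep nucleus covariate the log2 differences were -0.066 (NT sex) and -0.11 (LB sex) for Cx3cr1, 0.046 for P2ry12, 0.059 for Csf1r, 0.15 for Tmem119 and 0.041 for Lyz2 (LB against NT males), and 0.19 for P2ry12 and 9.76e-05 for Lyz2 (interaction). With myelin Cx3cr1 stood at -0.039 (LB sex) and -0.14 (LB against NT females), and P2ry12 at 0.20 (interaction). With meninges Cx3cr1 stood at -0.18 (LB sex), and with border macrophages Cx3cr1 and Tmem119 at -0.13 each (LB sex). With other microglia NT sex was -0.46 for Cx3cr1, -0.072 for Csf1r and -0.29 for Tmem119. LB sex was -0.46 for Cx3cr1, -0.20 for Csf1r, -0.30 for Tmem119 and -0.0131 and -0.00994 for C1qa and C1qb. LB against NT was 0.049 for Tmem119 in males, and -0.15 for Cx3cr1 and -0.00986 for Lyz2 in females. The interaction was 0.0069 for Cx3cr1, 0.11 for P2ry12 and 0.040 for C1qc. For LB against NT males Ctss was -0.00523 with DESeq2, -0.017 by library size and -0.011 with upper-quartile scaling.

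Leaving out 1 animal, Cx3cr1 ran from -0.029 to 0.19 (LB sex). For LB against NT males Tmem119 ran from -0.22 to 0.0089, C1qa from -0.00445 to 0.18, Lyz2 from -0.24 to 0.028 and Ctss from -0.11 to 0.13. For LB against NT females Cx3cr1 ran from -0.052 to 0.17, P2ry12 from -0.22 to 0.038 and Lyz2 from -0.00616 to 0.13. For the interaction P2ry12 ran from -0.32 to 0.062 and C1qc from -0.34 to 0.0086.

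The correlation of Cx3cr1 and P2ry12 was -0.031 both without the 2 farthest animals and after title prefix means, that of P2ry12 and Lyz2 -0.025 after title prefix means, and that of P2ry12 and C1qa -0.11 after group means and -0.092 after title prefix means. No paired analysis was possible because the labels give no number that pairs animals across groups. Counts of 42 to 356 reads for Cx3cr1, P2ry12 and Tmem119 limit the precision of these genes.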

Other observations

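LB female 5022 combined the highest C1q levels with the lowest P2ry12 level. Its log2 difference between P2ry12 and Csf1r was -4.75, and the next lowest animal was NT male 3113 at -3.82, which also had the highest Lyz2 level (70.7 CPM) and the highest C1qb and C1qc of the NT males. The 4 group medians of this difference ran from -2.65 to -2.50. P2ry12 rested on 42 reads in LB female 5022 and on 78 reads in NT male 3113.

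NT males 6111 and 6112 had the highest Cx3cr1 levels of all animals (13.9 and 19.9 CPM), with C1qa at 38.1 and 52.0 CPM, and NT male 6112 had the highest C1qa level of the NT males as well. NT male 6112 had the highest deep nucleus sum (4095 CPM) and the lowest granule neuron sum (2911 CPM) of the NT males.

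Aif1 and Cx3cr1, both used to mark microglia, did not keep a fixed ratio. The log2 difference of Aif1 and Cx3cr1 was -0.05 ± 0.27 (SD, n = 5) in NT females, 0.75 ± 0.57 (SD, n = 7) in NT males, 0.54 ± 0.67 (SD, n = 7) in LB females and 1.16 ± 0.35 (SD, n = 8) in LB males. These values were not tested, since both genes were chosen with results known.

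Ccl2, a chemokine of activated microglia, was called in NT animals (log2 fold change 2.05, adjusted p = 0.0235, edgeR's quasi-likelihood test), from 0 to 22 counts per animal.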
